A study of Mus musculus with 6 samples.

Results

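Interferon-stimulated genes are the antiviral genes that cells switch on in response to type I interferon. A list of 53 of them was followed in RNA-seq libraries of BV2, an immortalised mouse microglial cell line. The list was set by name, with earlier results of these data known, and leaves out the guanylate-binding, Schlafen, IRF and STAT genes. By symbol, 51 of the 53 matched a row among the 17872 genes of the deposited count table, and 49 passed the filter on low counts and were tested. Ifih1 and Ifitm2 matched no row, so only their promoter windows were analysed here. The libraries formed 2 groups of 3: BV2 cells of genotype Tfam-KO, made with CRISPR-Cas9, and BV2 cells of genotype WT, both with treatment given as none. Tfam codes for a mitochondrial protein that compacts the organelle's DNA and is needed to transcribe it. The labels mention puromycin at 2 µg/mL after the editing step in the same words for all 6 samples. Whether the edited cells were 1 clone or a pool, what the WT cells carried, and whether replicates were separate cultures is not stated, so all p-values rest on a spread between samples that may be technical.

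Type I interferon binds the receptor pair IFNAR1 and IFNAR2, whose kinases activate a transcription factor complex that holds IRF9. The complex binds the interferon-stimulated response element in the promoters of its target genes. The targets act at many steps of viral infection: they sense viral RNA, degrade it, block its translation, tag proteins with ISG15 and hold virus particles at membranes. Microglia, the resident macrophages of the brain, use the same pathway, and some of its targets can also be switched on by IRF3 directly.

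Total counts per library ran from 13850691 to 20889786 in labelled Tfam-KO libraries and from 14642397 to 28418133 in WT libraries. Levels are in CPM, counts per 1e+06 counts after TMM scaling. Adjusted p-values are from edgeR's quasi-likelihood test over all 13403 tested genes with Benjamini-Hochberg adjustment, and the words rose and fell are kept for genes with an adjusted p under 0.05. Tfam mRNA was 41.0, 42.7 and 43.2 CPM in labelled Tfam-KO libraries and 39.0, 38.5 and 37.1 CPM in WT libraries, and its log2 fold change of 0.14 did not pass (adjusted p = 0.193). It passed as higher with library totals alone (0.24, adjusted p = 0.0403) and with limma on the deposited log2 values (0.24, adjusted p = 0.0349). The Tfam mRNA was not lower in labelled Tfam-KO libraries and so does not bear out the label. Its level cannot show an edit that leaves the transcript in place, and every direction given is that of libraries labelled Tfam-KO against WT. Of 12 microglia and macrophage markers, 10 had a row. Their summed level was 2159 to 2359 CPM in labelled Tfam-KO libraries and 2645 to 2970 CPM in WT libraries. Of 9 tested markers, 2 were higher and 5 lower, where 21.3% of all tested genes were called higher and 22.9% lower. By log2 fold change, Adgre1 (0.61) and Fcgr1 (0.49) were higher. Csf1r (-1.46), Cx3cr1 (-1.15), Tyrobp (-0.83), Spi1 (-0.39) and Cd68 (-0.33) were lower, and Aif1 (-0.49) and Ptprc (-0.062) did not pass. Tmem119 was too low to be tested, and Itgam and P2ry12 matched no row by symbol. Counts were low for Cx3cr1, at 27, 12 and 6 in labelled Tfam-KO libraries and 57, 29 and 22 in WT libraries. Those of Tmem119 were 8, 0 and 0 in labelled Tfam-KO libraries and 11, 8 and 9 in WT libraries. Summed markers of astrocytes, neurons, fibroblasts, epithelial cells and lymphocytes lay between 0 and 3.82 CPM in every library. The oligodendrocyte list summed to 35.8 to 42.0 CPM in labelled Tfam-KO libraries and 62.8 to 66.0 CPM in WT libraries. The plasmacytoid dendritic cell list, nearly all of it from Bst2, summed to 181 to 226 CPM in labelled Tfam-KO libraries and 156 to 187 CPM in WT libraries. The part of these markers in the results was not tested, and in bulk RNA fewer cells of a type and less RNA per cell cannot be told apart.

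The response element is what many promoters of these genes share by sequence. RefSeq promoter windows on GRCm38.p6, from 250 bases before to 50 bases after the annotated start, were matched by symbol for 40 of the 53 genes (48 windows). The 13 without a match were Dhx58, Ifi27, Ifi27l2a, Mx1, Mx2, Oas1b, Oas2, Parp14, Parp9, Rtp4, Tor3a, Usp18 and Zbp1. The core of the element, GAAANNGAAA or its reverse complement TTTCNNTTTC, was searched on both strands, with overlapping matches counted separately. It lay in the windows of 19 of the 40 genes (47.5%), against 3.99% of all 27025 genes with a window. The windows of 6 genes are shown 5′ to 3′ on the strand of the gene, with the matches in capitals: Rsad2, which had the largest increase, the 3 IFIT genes with a match, Isg15 with its row of matches, and Isg20, which had the largest decrease and no match. They lie at chr12:26456403-26456702 on the minus strand for Rsad2, chr19:34640639-34640938 on the plus strand for Ifit1, chr19:34583279-34583578 on the plus strand for Ifit3, chr19:34607707-34608006 on the plus strand for Ifit3b, chr4:156200769-156201068 on the minus strand for Isg15 and chr7:78913174-78913473 on the plus strand for Isg20, the first of its 3 windows.
Rsad2: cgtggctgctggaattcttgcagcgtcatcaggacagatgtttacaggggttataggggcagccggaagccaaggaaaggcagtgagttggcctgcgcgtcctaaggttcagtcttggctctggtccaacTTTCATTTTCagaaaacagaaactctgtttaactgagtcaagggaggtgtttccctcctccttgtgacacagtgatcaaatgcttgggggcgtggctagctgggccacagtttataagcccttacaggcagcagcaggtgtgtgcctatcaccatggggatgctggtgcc
Ifit1: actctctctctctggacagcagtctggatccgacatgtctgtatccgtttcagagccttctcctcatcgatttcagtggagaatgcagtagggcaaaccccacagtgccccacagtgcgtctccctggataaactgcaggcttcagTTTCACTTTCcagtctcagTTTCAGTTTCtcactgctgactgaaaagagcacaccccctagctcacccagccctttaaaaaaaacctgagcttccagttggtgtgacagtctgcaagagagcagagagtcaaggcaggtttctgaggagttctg
Ifit3: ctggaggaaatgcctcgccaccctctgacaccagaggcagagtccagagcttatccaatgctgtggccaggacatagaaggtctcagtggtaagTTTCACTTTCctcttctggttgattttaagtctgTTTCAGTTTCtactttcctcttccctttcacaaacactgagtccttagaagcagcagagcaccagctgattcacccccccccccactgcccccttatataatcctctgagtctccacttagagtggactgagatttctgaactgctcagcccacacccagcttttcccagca
Ifit3b: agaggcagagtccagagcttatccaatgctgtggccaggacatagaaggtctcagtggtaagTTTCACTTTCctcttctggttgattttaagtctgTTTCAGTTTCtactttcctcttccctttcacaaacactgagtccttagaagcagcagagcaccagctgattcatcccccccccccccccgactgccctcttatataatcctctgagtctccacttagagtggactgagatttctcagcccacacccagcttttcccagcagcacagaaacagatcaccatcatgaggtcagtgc
Isg15: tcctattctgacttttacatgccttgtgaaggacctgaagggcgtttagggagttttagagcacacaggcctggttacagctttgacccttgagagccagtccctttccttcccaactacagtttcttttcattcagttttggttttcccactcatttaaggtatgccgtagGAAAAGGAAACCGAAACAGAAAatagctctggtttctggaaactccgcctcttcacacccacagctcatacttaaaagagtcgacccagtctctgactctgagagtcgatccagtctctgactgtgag
Isg20: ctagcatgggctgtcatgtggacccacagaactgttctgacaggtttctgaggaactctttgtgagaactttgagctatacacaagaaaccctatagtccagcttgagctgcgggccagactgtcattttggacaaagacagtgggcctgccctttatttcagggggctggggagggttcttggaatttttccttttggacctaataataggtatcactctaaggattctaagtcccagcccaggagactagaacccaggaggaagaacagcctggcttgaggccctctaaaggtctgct

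Counted from the first base of the gene as 0, the Isg15 window held 3 overlapping matches that start at -78, -72 and -66. Ifit1 had a pair of matches at -104 and -85, and Rsad2 had 1 match at -120. In Ifit3 and Ifit3b the 2 matches stood 34 bases apart, at -156 and -122 in Ifit3 and at -188 and -154 in Ifit3b. By family, a match was found in 3 of 4 IFIT genes, 4 of 6 OAS genes, 2 of 3 IFITM genes and 0 of 2 PARP-group genes with a window. In the RIG-I-like receptor group it was found in 3 of 3, Ddx58, Ifih1 and the related helicase gene Ddx60, while Dhx58 had no window. Of the 16 tested genes with a match, 11 rose, with a median log2 fold change of 0.55. Of the 21 tested genes without a match, 13 rose, with a median of 0.485. Over all tested genes, 21.3% were called higher. A match is a run of letters and not a measured binding site, and a window without one says only that these letters are not in it.

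In labelled Tfam-KO libraries, 33 of the 49 tested genes (67.3%) were higher than in WT libraries, 3 (6.12%) were lower and 13 did not pass. Over all tested genes, 21.3% were called higher and 22.9% lower, 44.2% in all. These shares also stand beside each count of called genes by role group below. The list was chosen with earlier results of these data known, and the difference between these shares was not tested. The median log2 fold change was 0.48 for the interferon-stimulated genes tested and 0.0012 over all genes tested. A rise of at least 2-fold was called for 13 genes, Rsad2, Ifit1, Ddx60, Xaf1, Ifit3, Parp14, Isg15, Oasl2, Ifit2, Rtp4, Oas1b, Cmpk2 and Ifi44, with folds from 2.28 to 4.90, against 2.97% of all tested genes. A fall of at least 2-fold was called for 2, Isg20 and Ifi27l2a, against 5.54% of all tested genes. The other 20 increases had log2 fold changes of 0.23 to 0.78. Against a change of 1.5-fold (edgeR's glmTreat), 14 genes passed as higher, the same 13 and Helz2, where 2.9% of all tested genes did. The same test passed 2 as lower, Isg20 and Ifi27l2a, where 5.26% of all tested genes did. Each labelled Tfam-KO library lay above each WT library for 33 of the 49 genes, against 26.3% of all tested genes, and below for 3, against 26.6%. Those 33 are not the 33 called, since Oas1c and Mx1 lay above without passing and Oasl1 and Bst2 passed with overlapping groups. With library totals alone, 34 genes were higher and 2 lower, and higher genes made up 61.8% of the calls over all genes, against 48.2% with TMM scaling.

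**Figure D1:**
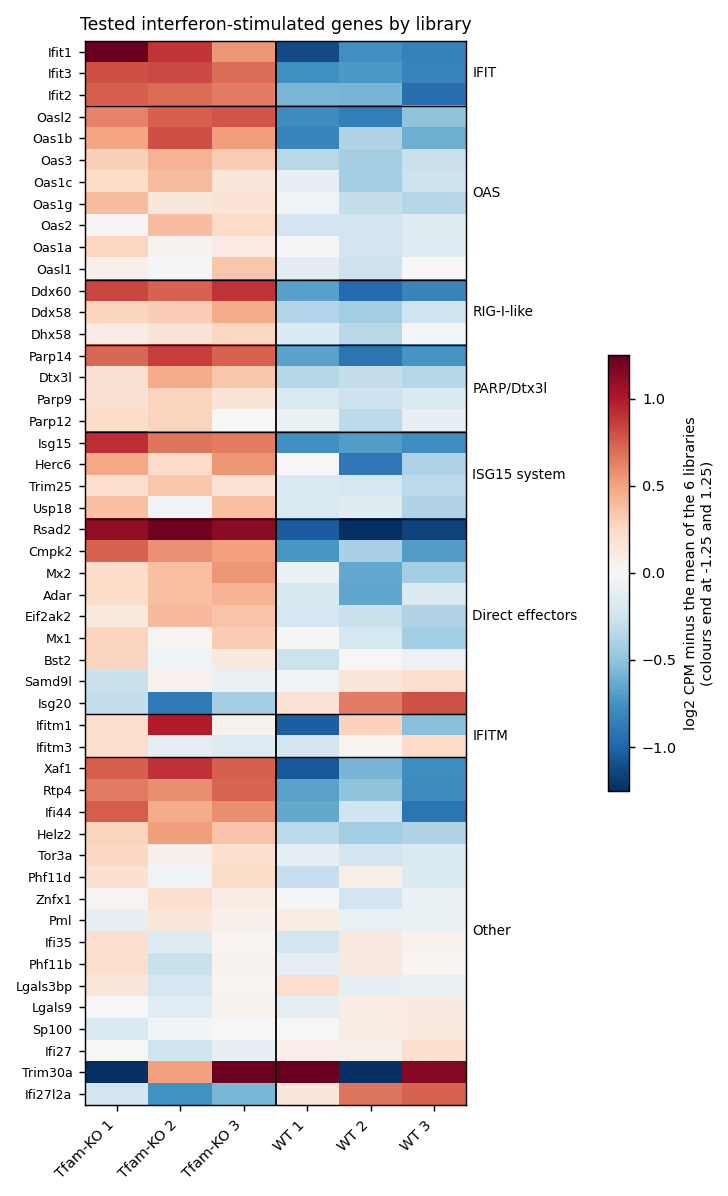
Level of each of the 49 tested genes in each library, as log2 CPM minus the mean of the 6 libraries (colour), with labelled Tfam-KO libraries left of the line and WT libraries right of it, and genes grouped by role. Most rows are higher on the left, the Isg20 and Ifi27l2a rows are the reverse, and the Trim30a row alternates within both groups.

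**Figure D2:**
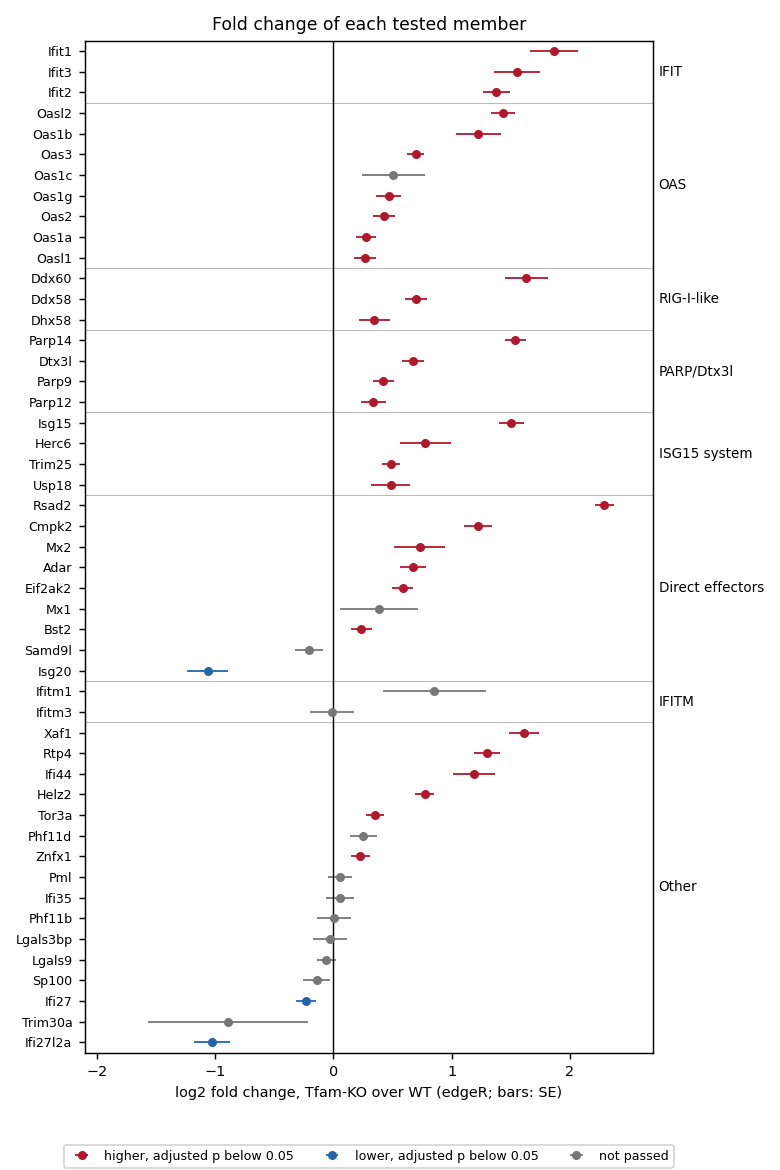
Log2 fold change of each tested gene, labelled Tfam-KO over WT, with its standard error as a bar, by role. Colour separates the 33 higher genes, the 3 lower genes and the 13 that did not pass, and Rsad2 lies farthest to the right at 2.29.

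The IFIT proteins bind viral RNA that lacks the cap methylation of host mRNA and block its translation. All 3 tested IFIT genes rose by more than 2-fold, and their median log2 fold change was 1.55. Ifit1 was 14.7, 11.3 and 8.93 CPM in labelled Tfam-KO libraries and 2.81, 3.59 and 3.40 CPM in WT libraries. Its lowest labelled Tfam-KO library stood above its highest WT library, and it rose 3.65-fold (log2 fold change 1.87 ± 0.205 SE, adjusted p = 1.32e-06). Ifit2, which has been linked to cell death, was 36.8, 35.6 and 34.1 CPM in labelled Tfam-KO libraries and 14.7, 14.7 and 11.4 CPM in WT libraries (2.59-fold higher, adjusted p = 4.29e-08). Ifit3, a partner of human IFIT1 in complexes, was 7.51, 7.64 and 6.98 CPM in labelled Tfam-KO libraries and 2.52, 2.61 and 2.41 CPM in WT libraries (2.93-fold higher, adjusted p = 6.66e-06). Both kept their groups apart. Ifit3b, a copy of Ifit3, was too low to be tested, at 7, 4 and 19 counts in labelled Tfam-KO libraries and 7, 1 and 1 in WT libraries. The longest Ifit3 transcript matches Ifit3b over 97.4% of its length at 95% identity or more, so their separate values are uncertain.

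The OAS enzymes make 2′-5′-linked oligoadenylates when they meet double-stranded RNA, and these switch on the ribonuclease RNase L. Of the 8 OAS and OAS-like genes tested, 7 rose and Oas1c did not pass, with log2 fold changes from 0.27 to 1.43 and a median of 0.49. Oasl2, an OAS-like gene, was 59.4, 64.5 and 66.6 CPM in labelled Tfam-KO libraries and 22.4, 21.1 and 27.2 CPM in WT libraries (2.701-fold higher, adjusted p = 9.08e-09). Oas1b, the gene behind flavivirus resistance in mice, was 8.36, 10.4 and 8.51 CPM in labelled Tfam-KO libraries and 3.34, 4.56 and 3.89 CPM in WT libraries (2.34-fold higher, adjusted p = 5.02e-05). Oas3, which prefers long double-stranded RNA, was 198, 217 and 201 CPM in labelled Tfam-KO libraries and 127, 121 and 133 CPM in WT libraries (1.62-fold higher, adjusted p = 7.21e-07). The groups did not overlap for any of these. Oas2 was 63.7, 82.3 and 74.3 CPM in labelled Tfam-KO libraries and 53.6, 53.4 and 56.7 CPM in WT libraries (1.35-fold higher, adjusted p = 0.00117). Oas1g was 52.4, 43.7 and 44.7 CPM in labelled Tfam-KO libraries and 38.2, 32.3 and 31.1 CPM in WT libraries (1.38-fold higher, adjusted p = 0.00163). Oas1a and Oasl1 had the smallest increases of the family. Oas1a was 80.0, 68.7 and 71.6 CPM in labelled Tfam-KO libraries and 65.7, 56.7 and 59.7 CPM in WT libraries (log2 fold change 0.27, adjusted p = 0.0157). The Oas1a call was lost without labelled Tfam-KO replicate 1 (0.0753), WT replicate 2 (0.0710) or WT replicate 3 (0.0536), where values in brackets are adjusted p-values. Oasl1, which in mice limits translation of Irf7 mRNA, was 195, 184 and 237 CPM in labelled Tfam-KO libraries and 169.8, 156 and 186 CPM in WT libraries, with overlapping groups (log2 fold change 0.27, adjusted p = 0.0276). The Oasl1 call was lost without labelled Tfam-KO replicate 3 (0.230) or WT replicate 2 (0.121). Oas1c was 2.88, 3.22 and 2.72 CPM in labelled Tfam-KO libraries and 2.28, 1.83 and 2.05 CPM in WT libraries (adjusted p = 0.133). Oas1a and Oas1g match each other over 100% and 94.1% of their longest transcripts at 95% identity or more, so reads may be split between them.

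The RIG-I-like receptors sense viral RNA in the cytosol and signal through MAVS. Ddx58 (RIG-I), Dhx58 (LGP2) and the related helicase gene Ddx60 were tested, and all 3 rose, with a median log2 fold change of 0.70. Ddx60, described as a cofactor of RIG-I, was 9.40, 8.73 and 9.84 CPM in labelled Tfam-KO libraries and 3.27, 2.67 and 2.97 CPM in WT libraries (3.10-fold higher, adjusted p = 1.69e-06). Ddx58 was 45.8, 46.5 and 52.0 CPM in labelled Tfam-KO libraries and 29.2, 27.96 and 31.8 CPM in WT libraries (1.62-fold higher, adjusted p = 1.39e-05). Both had a wide gap between the groups. Dhx58, which lacks the signalling domain and tunes the other receptors, was 14.3, 14.9 and 15.9 CPM in labelled Tfam-KO libraries and 11.8, 10.4 and 13.2 CPM in WT libraries (log2 fold change 0.35, adjusted p = 0.039). The Dhx58 call was lost with DESeq2 (0.050018) and without labelled Tfam-KO replicate 2 (0.0616), labelled Tfam-KO replicate 3 (0.129), WT replicate 1 (0.0617) or WT replicate 2 (0.140).

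The PARP group holds the genes of the ADP-ribosyltransferase family Parp9, Parp12 and Parp14 and of the ubiquitin ligase Dtx3l, which binds Parp9. All 4 rose, with a median log2 fold change of 0.55, and Parp14 had the largest change. Parp14 was 81.4, 89.96 and 82.5 CPM in labelled Tfam-KO libraries and 31.2, 26.3 and 29.7 CPM in WT libraries (2.90-fold higher, log2 fold change 1.54 ± 0.0901 SE, adjusted p = 5.59e-10). Dtx3l was 45.8, 55.2 and 50.9 CPM in labelled Tfam-KO libraries and 31.4, 32.7 and 31.3 CPM in WT libraries (1.59-fold higher, adjusted p = 1.98e-05). Parp9 was 48.4, 51.4 and 47.4 CPM in labelled Tfam-KO libraries and 37.0, 35.4 and 37.5 CPM in WT libraries (1.34-fold higher, adjusted p = 0.0008). In all of these the lowest labelled Tfam-KO library exceeded the highest WT library. Exons of Parp9 and Dtx3l overlap on opposite strands over 9.4% of Parp9 and 8% of Dtx3l, and the library kit does not mark strand, so those reads cannot be told apart. Parp12, which can block translation of viral RNA, was 37.4, 38.7 and 32.0 CPM in labelled Tfam-KO libraries and 30.2, 25.6 and 29.9 CPM in WT libraries (log2 fold change 0.34, adjusted p = 0.0155). The Parp12 call was lost without labelled Tfam-KO replicate 2 (0.0533) or WT replicate 2 (0.0739).

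Isg15 is a ubiquitin-like protein that is joined to other proteins, in mice with Herc6 as the main ligase, and removed by Usp18, which also dampens receptor signalling. All 4 genes of this system, Trim25 included, rose, with a median log2 fold change of 0.63. Isg15 was 56.2, 47.1 and 46.2 CPM in labelled Tfam-KO libraries and 17.4, 18.3 and 17.2 CPM in WT libraries (2.84-fold higher, adjusted p = 5e-09). The gene model AC151275.1 matches 63.8% of the longest Isg15 transcript at 95% identity or more, so its value is uncertain. Herc6 was 7.79, 6.55 and 8.16 CPM in labelled Tfam-KO libraries and 5.58, 3.00 and 4.25 CPM in WT libraries (1.71-fold higher, adjusted p = 0.00731). Trim25, a ubiquitin ligase that activates RIG-I, was 318, 353 and 315 CPM in labelled Tfam-KO libraries and 245, 238 and 221 CPM in WT libraries (1.40-fold higher, adjusted p = 7.21e-05). The WT values of Herc6 were more scattered than those of Trim25, and neither gene's groups overlapped. Usp18 was 10.8, 8.16 and 10.8 CPM in labelled Tfam-KO libraries and 7.29, 7.496 and 6.44 CPM in WT libraries (1.40-fold higher, adjusted p = 0.0226). The Usp18 call was lost without labelled Tfam-KO replicate 1 (0.0818), labelled Tfam-KO replicate 3 (0.0872) or WT replicate 3 (0.0755).

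Of 9 tested genes for direct antiviral effectors, 6 rose, 1 fell and 2 were not called, and the median log2 fold change was 0.58. Rsad2 (viperin), which turns CTP into a chain-terminating nucleotide, had the largest change of the 49 genes. It was 185, 199 and 188 CPM in labelled Tfam-KO libraries and 41.9, 36.2 and 38.4 CPM in WT libraries, a 4.90-fold rise (log2 fold change 2.29 ± 0.0797 SE, adjusted p = 8.74e-13). Cmpk2, the nucleotide kinase gene beside it, was 32.3, 28.9 and 27.8 CPM in labelled Tfam-KO libraries and 11.7, 14.7 and 11.96 CPM in WT libraries (2.33-fold higher, adjusted p = 3.07e-07). Both genes kept their groups fully apart. Adar, which deaminates adenosines in double-stranded RNA, was 65.2, 72.1 and 75.1 CPM in labelled Tfam-KO libraries and 48.5, 35.5 and 49.1 CPM in WT libraries (1.59-fold higher, adjusted p = 9.25e-05). Eif2ak2 (PKR), the kinase that halts translation on double-stranded RNA, was 62.9, 76.3 and 73.8 CPM in labelled Tfam-KO libraries and 49.5, 47.6 and 44.4 CPM in WT libraries (1.5-fold higher, adjusted p = 5.19e-05). Exons of Chrnb2 overlap Adar on the opposite strand over 16.8% of its exon length, so some Adar reads may be shared. Mx2, a dynamin-like GTPase gene, was 5.15, 5.69 and 6.42 CPM in labelled Tfam-KO libraries and 4.12, 2.80 and 3.26 CPM in WT libraries (1.66-fold higher, adjusted p = 0.0108), and Mx1 matches it over 34% of its longest transcript. Its relative Mx1, defective in many inbred mouse strains, was 1.84, 1.55 and 1.88 CPM in labelled Tfam-KO libraries and 1.53, 1.30 and 1.13 CPM in WT libraries and did not pass (adjusted p = 0.366). Samd9l, which restricts poxviruses, was 16.9, 21.4 and 19.3 CPM in labelled Tfam-KO libraries and 19.9, 22.9 and 23.7 CPM in WT libraries (log2 fold change -0.20, adjusted p = 0.177). The groups of Mx1 lay apart at a low level, and those of Samd9l overlapped. Samd9l was called lower with length and GC offsets (0.0499). Zbp1, a sensor of Z-form nucleic acids that can trigger necroptosis, had 5, 11 and 6 counts in labelled Tfam-KO libraries and 14, 6 and 3 in WT libraries, too few to be tested.

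**Figure D3:**
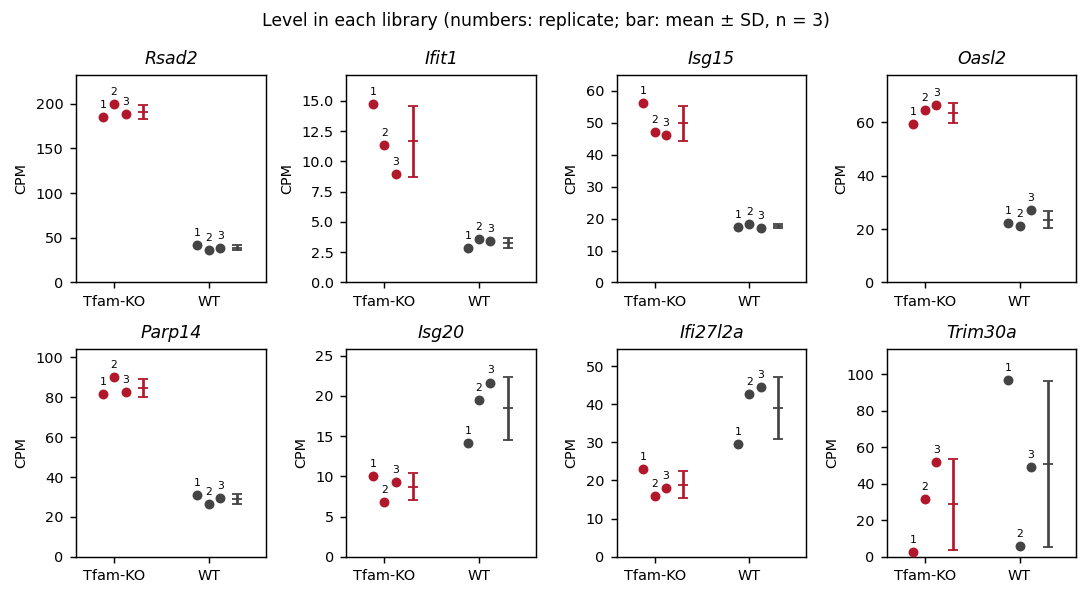
CPM of 8 genes in each library (points, numbered by replicate), with the mean and SD of each group (n = 3), labelled Tfam-KO left of WT. In Rsad2 the 3 labelled Tfam-KO libraries sit at 185, 199 and 188 CPM, far above WT libraries, in Isg20 and Ifi27l2a they sit below, and in Trim30a both groups are mixed between 2.502 and 97.0 CPM.

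Proteins of the IFITM family sit in membranes and hinder the fusion of viruses with the cell. Neither of the 2 tested IFITM genes was called. Ifitm3 was 7.74, 6.15 and 5.93 CPM in labelled Tfam-KO libraries and 5.65, 6.78 and 7.85 CPM in WT libraries, with overlapping groups (log2 fold change -0.0094 ± 0.187 SE, adjusted p = 0.975). Ifitm1 was low, at 1.18, 2.01 and 1.05 CPM in labelled Tfam-KO libraries and 0.498, 1.24 and 0.708 CPM in WT libraries, from 25, 35 and 15 counts in labelled Tfam-KO libraries and 14, 19 and 10 in WT libraries. Its groups overlapped, and its log2 fold change of 0.85 ± 0.437 SE did not pass (adjusted p = 0.126). The sign for Ifitm3 depended on the setting, and it was 0.088 with library totals alone. The difference between this family and the others was not tested. Bst2 (tetherin), which holds budding virus particles at the cell surface, was 224, 179 and 202 CPM in labelled Tfam-KO libraries and 154, 185 and 176 CPM in WT libraries. These groups overlapped, and the log2 fold change was 0.24 (adjusted p = 0.0404). The Bst2 call was lost without labelled Tfam-KO replicate 1 (0.179), labelled Tfam-KO replicate 3 (0.0985), WT replicate 1 (0.131) or WT replicate 3 (0.0687).

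The genes that fell were Isg20, Ifi27l2a and Ifi27. Isg20, an exonuclease that degrades single-stranded RNA, was 10.1, 6.78 and 9.28 CPM in labelled Tfam-KO libraries and 14.2, 19.5 and 21.7 CPM in WT libraries (log2 fold change -1.06 ± 0.173 SE, adjusted p = 9.18e-05). Ifi27l2a, of the ISG12 family of small hydrophobic proteins, was 22.9, 15.9 and 18.1 CPM in labelled Tfam-KO libraries and 29.7, 42.7 and 44.6 CPM in WT libraries (log2 fold change -1.02 ± 0.152 SE, adjusted p = 3.49e-05). In both genes WT replicate 1 was the lowest WT library and still lay above each labelled Tfam-KO library. Ifi27, a neighbour of Ifi27l2a from the same family, was 402, 339 and 375 CPM in labelled Tfam-KO libraries and 425, 423 and 463 CPM in WT libraries (log2 fold change -0.23, adjusted p = 0.0292). The Ifi27 call was lost with library totals alone (0.180), limma on the deposited log2 values (0.163) or length and GC offsets (0.135) and without labelled Tfam-KO replicate 2 (0.113), labelled Tfam-KO replicate 3 (0.0909), WT replicate 2 (0.0512) or WT replicate 3 (0.153).

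Of 13 further genes, 6 rose and 7 were not called. The pro-apoptotic gene Xaf1 was 32.5, 36.4 and 32.5 CPM in labelled Tfam-KO libraries and 9.31, 13.0 and 11.3 CPM in WT libraries (3.05-fold higher, adjusted p = 1.98e-08). Rtp4, known as a chaperone of membrane receptors, was 33.2, 31.7 and 35.1 CPM in labelled Tfam-KO libraries and 13.4, 14.9 and 12.3 CPM in WT libraries (2.46-fold higher, adjusted p = 4.86e-08). Ifi44 was 13.4, 10.9 and 11.8 CPM in labelled Tfam-KO libraries and 5.05, 6.65 and 4.18 CPM in WT libraries (2.28-fold higher, adjusted p = 3.56e-05). None of these had overlapping groups. Exons of other gene models overlap Rtp4 over 13.9%, Ifi35 over 16.8% and, of the ISG15 system, Herc6 over 13.7% of their exon length, so some of their reads may be shared. Smaller increases were found for the helicase gene Helz2 (107, 127 and 114 CPM in labelled Tfam-KO libraries and 70.1, 65.6 and 68.3 CPM in WT libraries, 1.71-fold higher, adjusted p = 6.4e-07) and the torsin family ATPase gene Tor3a (95.3, 83.4 and 91.7 CPM in labelled Tfam-KO libraries and 73.1, 68.0 and 70.5 CPM in WT libraries, 1.28-fold higher, adjusted p = 0.00136). Znfx1, which codes for an RNA sensor at mitochondria, was 85.2, 96.3 and 88.8 CPM in labelled Tfam-KO libraries and 82.1, 70.2 and 78.5 CPM in WT libraries (1.17-fold higher, adjusted p = 0.0321). The Znfx1 call was lost without labelled Tfam-KO replicate 2 (0.110), labelled Tfam-KO replicate 3 (0.0730), WT replicate 2 (0.147) or WT replicate 3 (0.0630). The genes of the nuclear body proteins Pml (log2 fold change 0.058 ± 0.101 SE) and Sp100 (-0.14 ± 0.114 SE), the galectin gene Lgals9 (-0.059 ± 0.0823 SE), the galectin-binding Lgals3bp (-0.026 ± 0.143 SE) and Ifi35 (0.057 ± 0.116 SE) were not called. Neither were Phf11b (log2 fold change 0.0067 ± 0.142 SE) and Phf11d (0.25 ± 0.113 SE, adjusted p = 0.0778), and Phf11b matches other transcripts over 73% of its length. Phf11d was called higher with library totals alone (0.0130) or limma on the deposited log2 values (0.0137) and without labelled Tfam-KO replicate 2 (0.0279) or WT replicate 2 (0.0228).

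Trim30a, a TRIM protein known in mice as an inhibitor of NF-kB signalling downstream of Toll-like receptors, varied most between replicates. It had 53, 551 and 744 counts in labelled Tfam-KO libraries and 2728, 94 and 694 in WT libraries, or 2.502, 31.7 and 51.9 CPM in labelled Tfam-KO libraries and 97.0, 6.13 and 49.1 CPM in WT libraries. Labelled Tfam-KO replicate 1 and WT replicate 2 were low, WT replicate 1 was the highest, and the remaining 3 libraries lay between. The highest replicate was 20.7 times the lowest among labelled Tfam-KO libraries and 15.8 times among WT libraries, where the same ratios for Rsad2 were 1.079 and 1.16. The within-group SD of log2 CPM of Trim30a was 2.19, the largest of the 13403 tested genes, where the second largest was 1.67 and the median 0.14. Among the other interferon-stimulated genes the largest was 0.53, for Ifitm1. The log2 fold change of Trim30a, -0.89 ± 0.676 SE, did not pass (adjusted p = 0.308), and was 0.048 without WT replicate 1. No transcript of another gene matched Trim30a over at least 100 bases at 95% identity, and no annotated exon of another gene overlapped it. The source of the spread was not tested.

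**Figure D4:**
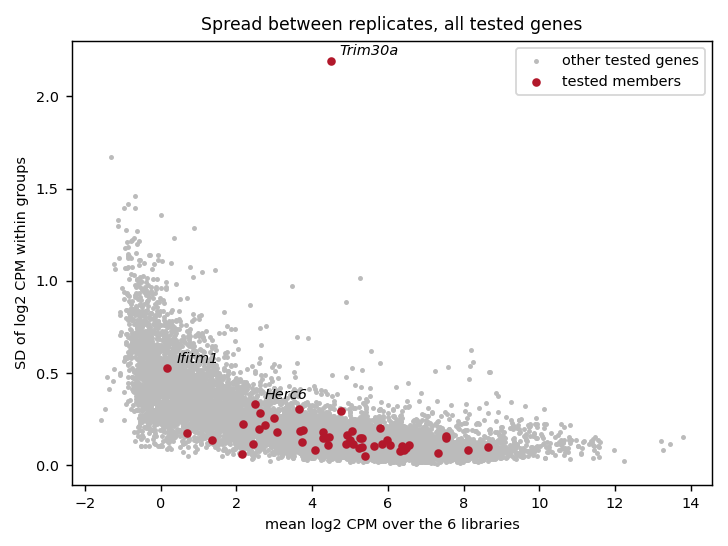
Within-group SD of log2 CPM against mean log2 CPM for the 13403 tested genes, with the 49 interferon-stimulated genes marked. Trim30a lies above all other genes at 2.19, and the other marked genes lie at 0.53 or less.

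Several of the genes are neighbours in the genome, and the ratio of their counts within a library needs no scaling between libraries. The gene order gave 10 pairs of neighbours with counts for both. In each pair the gene with the higher fold change was put on top, which fixes the direction, so the sizes are a description. In 8 of the 10 pairs the ratios of the groups did not overlap, against 53% of 7655 neighbouring pairs over all tested genes with counts in every library. The difference between these shares was not tested, and the count is not read as particular to these genes. The exact two-sided permutation test gave p = 0.1 for each of those 8, the smallest that 3 against 3 allows, and 0.125 after Benjamini-Hochberg adjustment over the 10 pairs, so none passed. The ratio of Oasl2 to Oasl1 was 0.304, 0.350 and 0.281 in labelled Tfam-KO libraries and 0.132, 0.136 and 0.146 in WT libraries. For Rsad2 to Cmpk2 it was 5.71, 6.90 and 6.78 in labelled Tfam-KO libraries and 3.57, 2.47 and 3.21 in WT libraries. The ratio of Parp14 to Dtx3l was 1.78, 1.63 and 1.62 in labelled Tfam-KO libraries and 0.995, 0.804 and 0.948 in WT libraries. Although both genes of each of these pairs rose, the one on top took a larger share of the pair's counts in each labelled Tfam-KO library. Dtx3l to Parp9 moved less, at 0.946, 1.07 and 1.07 in labelled Tfam-KO libraries and 0.846, 0.923 and 0.834 in WT libraries. Ifi27 to Ifi27l2a, both lower, was 17.6, 21.4 and 20.7 in labelled Tfam-KO libraries and 14.3, 9.90 and 10.4 in WT libraries. Ifit3 to Ifit2 overlapped, at 0.204, 0.215 and 0.204 in labelled Tfam-KO libraries and 0.171, 0.178 and 0.211 in WT libraries (exact permutation p = 0.3).

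**Figure D5:**
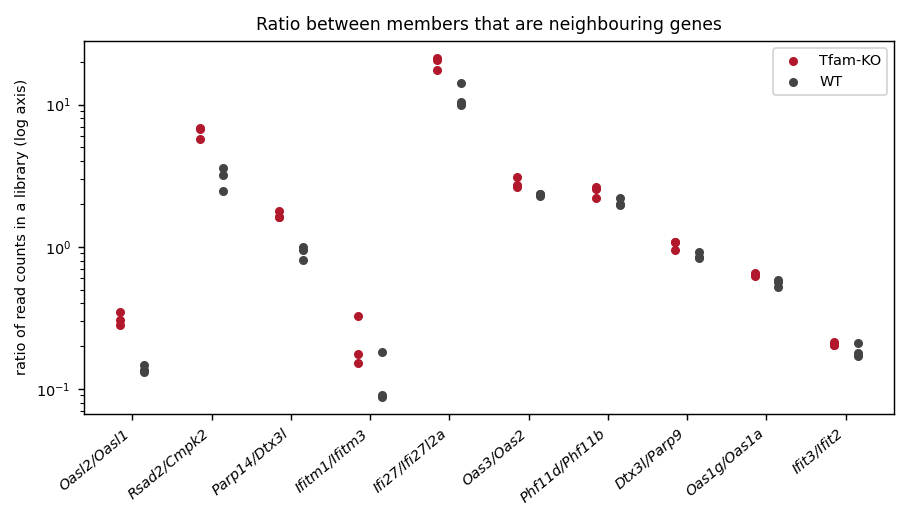
Ratio of read counts within each library (points, log axis) for 10 pairs of neighbouring genes, labelled Tfam-KO left of WT in each pair. Oasl2/Oasl1, Rsad2/Cmpk2 and Parp14/Dtx3l show clear gaps, while Ifitm1/Ifitm3 and Ifit3/Ifit2 overlap.

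Levels between genes were compared as CPM per 1000 bases of annotated exon, as means of 3 libraries. In labelled Tfam-KO libraries the order began with Ifi27 (254), Bst2 (223), Oasl1 (78.8), Isg15 (65.9), Trim25 (57.2) and Rsad2 (44.0). In WT libraries it began with Ifi27 (298), Bst2 (189.9), Ifi27l2a (84.2), Oasl1 (65.4), Lgals9 (45.4) and Trim25 (40.8). Among 51 genes Rsad2 thus ranked 6 in labelled Tfam-KO libraries and 20 in WT libraries, Isg15 ranked 4 in labelled Tfam-KO libraries and 8 in WT libraries, and Ifi27l2a ranked 8 in labelled Tfam-KO libraries and 3 in WT libraries. The lowest tested gene in WT libraries was Ddx60 (0.342). Of the 12 tested genes with the highest WT level, 1 (Isg15) rose at least 2-fold, and of the 12 with the lowest, 6 did, while 8 rose in each of these sets. Over all tested genes, 21.3% were called higher, and 2.97% were called at least 2-fold higher. WT values enter both the level and the fold change, so the measures are not independent. Summed over the 51 genes, the level was 3047, 3043 and 3104 CPM in labelled Tfam-KO libraries and 2329, 2224 and 2362 CPM in WT libraries.

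Upstream of the interferon-stimulated genes, a list of 44 interferon ligands, receptors and relay factors was followed, of which 23 had a row and 22 were tested. Of these 22, 11 rose and 4 fell, against 21.3% higher and 22.9% lower over all tested genes, and their median log2 fold change was 0.21. No interferon ligand gene of this list matched a row by symbol, so the ligands could not be tested. The receptor chain gene Ifnar2 was 60.0, 56.8 and 56.0 CPM in labelled Tfam-KO libraries and 36.0, 38.4 and 42.2 CPM in WT libraries, with no overlap (1.49-fold higher, adjusted p = 5.94e-05). Its partner Ifnar1 was 81.9, 86.7 and 85.4 CPM in labelled Tfam-KO libraries and 73.4, 78.7 and 71.9 CPM in WT libraries and did not pass (adjusted p = 0.0571). Ifnar1 was called higher with library totals alone (0.00718) or limma on the deposited log2 values (0.00703) and without labelled Tfam-KO replicate 1 (0.0485). Of the interferon gamma receptor chains, Ifngr2 was 144, 130.1 and 137 CPM in labelled Tfam-KO libraries and 116, 115 and 120.4 CPM in WT libraries (log2 fold change 0.23, adjusted p = 0.0147), a call lost without labelled Tfam-KO replicate 3 (0.0580). Ifngr1 was 31.5, 30.3 and 32.7 CPM in labelled Tfam-KO libraries and 36.5, 41.0 and 39.3 CPM in WT libraries (log2 fold change -0.30, adjusted p = 0.0134). The Ifngr1 call was lost with library totals alone (0.0883) or limma on the deposited log2 values (0.0849) and without WT replicate 2 (0.0714) or WT replicate 3 (0.0519). The interferon lambda receptor gene Ifnlr1 did not pass (log2 fold change -0.47, adjusted p = 0.176).

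Besides Ifnar2, the upstream genes with the largest called changes were Ikbke, Tyk2, Mb21d1, Irf1 and Irf7. Ikbke, a kinase that activates IRF3 and IRF7, was 191, 237 and 213 CPM in labelled Tfam-KO libraries and 79.4, 68.2 and 74.2 CPM in WT libraries (2.88-fold higher, adjusted p = 4.3e-10). Mb21d1, the older symbol of the DNA sensor cGAS, was 57.5, 54.9 and 59.1 CPM in labelled Tfam-KO libraries and 32.7, 25.4 and 29.7 CPM in WT libraries (1.94-fold higher, adjusted p = 7.52e-07). The transcription factor genes Irf1 (1.71-fold higher, adjusted p = 1.64e-05) and Irf7 (1.54-fold higher, adjusted p = 2.98e-05) rose as well. Tyk2, the receptor kinase gene, was low at 0.519, 1.84 and 1.40 CPM in labelled Tfam-KO libraries and 0.676, 0.196 and 0.425 CPM in WT libraries. Its groups overlapped, and it was called higher (log2 fold change 1.39, adjusted p = 0.0431). The Tyk2 call was lost with limma-voom (0.0925) or no filter on low counts (0.0513) and without labelled Tfam-KO replicate 2 (0.225), labelled Tfam-KO replicate 3 (0.102), WT replicate 2 (0.151) or WT replicate 3 (0.108). Irf9 and Stat2, transcription factor genes of the response, are named after their values were seen. Irf9 was 35.6, 31.8 and 33.4 CPM in labelled Tfam-KO libraries and 28.2, 24.2 and 24.9 CPM in WT libraries, with separate groups (1.30-fold higher, adjusted p = 0.00556). Stat2 was 29.0, 34.3 and 30.3 CPM in labelled Tfam-KO libraries and 28.2, 31.8 and 36.9 CPM in WT libraries, with overlapping groups (adjusted p = 0.781). Beside Ifngr1, the lower genes, also named after their values were seen, were Tmem173 (STING, log2 fold change -0.50, adjusted p = 0.000411), Irf3 (-0.45, adjusted p = 0.00275) and Irf5 (-0.35, adjusted p = 0.00188).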

How the data were processed

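RNA of 6 BV2 samples, 3 labelled Tfam-KO and 3 labelled WT, was sequenced, and samples were grouped by their titles. Per the labels' protocols, RNA came from a TRIzol extraction, and the NEBNext Ultra kit used for the libraries does not keep strand. The submitters' processing notes list bcl2fastq 2.17, HISAT2 2.1.0, SAMtools 1.9, featureCounts 2.0.0 and GRCm39. The treatment of multi-mapping reads was not given in the sources used here. The deposited table holds raw read counts per gene, and every gene in it has 6 or more counts over the libraries. The authors' second deposited table holds log2 values. By their size, they equal the log2 of a count scaled to a common total plus 8.

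Counts were tested with edgeR 4.0.16 under R 4.3.3 by filterByExpr, TMM and the quasi-likelihood fit, with group as the only term. SE is the absolute log2 fold change divided by the root of F. Alternatives were DESeq2 1.42.0, limma-voom and limma on the deposited log2 values (limma 3.58.1), median-ratio factors, library totals, a minimum of 5 CPM in 3 libraries, no filter, a replicate block, glmTreat and the omission of each library. Offsets by length and GC content (values for 99.5% of tested genes) and the count without near-identical transcripts were added after seeing the data. Within-group SDs used log2 CPM with a prior count of 2. The fit was first tested on simulated counts. Replicates in a group differed by more than sampling noise.

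Exon lengths, overlaps and near-identical transcripts (BLAST 2.17.0, at least 100 bases at 95% identity) came from GENCODE M21 on GRCm38, which is not the authors' build. The count without near-identical transcripts left out genes with such matches over at least 50% of their longest transcript. Promoter sequences and the positions of their windows are RefSeq's on GRCm38.p6, and no position is given on GRCm39. The 53 genes, their groups and the lists were chosen with earlier results of these data known. Any of the 53 could be named. Of the upstream list, the rule named the receptors and the 6 largest called changes. Not every gene of that list is reported here.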

Additional observations from a re-analysis of the deposited data

How the results depend on the processing

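The number of interferon-stimulated genes called higher was 28 to 31 with 1 library left out, 32 with DESeq2, 33 or 34 with the other scalings, tests, filters and offsets, and 29 without genes that have near-identical transcripts. Against a 1.5-fold change (glmTreat) it was 14, and 1094 of all genes were called, against 5926 without that minimum. The number called lower was 2 or 3 in every setting. Over all genes, leaving out 1 library gave 4847 to 5743 calls. Of the 36 called genes, 28 kept call and direction in every setting other than glmTreat, and 8 lost the call with 1 library left out. Same-numbered libraries did not deviate together (r = -0.10, -0.11 and 0.04 across genes for replicates 1, 2 and 3), so the numbers were not taken as a pairing. The replicate block gave 30 genes higher, 2 lower and 5255 called in all, and Dhx58 (adjusted p = 0.0552), Bst2 (0.0994), Znfx1 (0.0749) and Ifi27 (0.0619) lost their calls under it, as did Tyk2 (0.111). Sign changes touched genes that were not called, and their cause was not tested. With library totals alone the log2 fold change was 0.088 for Ifitm3, 0.068 for Lgals3bp, 0.041 for Lgals9 and 0.058 for Stat2, and with limma on the deposited log2 values 0.065, 0.081, 0.040 and 0.054 in the same order. Ifitm3 was at 0.045 with limma-voom and 0.20 with length and GC offsets, and Lgals3bp at 0.034 with those offsets. Phf11b was at -0.0031 with the filter of 5 CPM and -0.0012 with the replicate block. With 1 library left out, the log2 fold change was -0.15 to 0.11 for Ifitm3, -0.12 to 0.12 for Lgals3bp, -0.12 to 0.13 for Phf11b, -0.040 to 0.15 for Ifi35, -1.63 to 0.048 for Trim30a and -0.13 to 0.068 for Stat2. A planned count without genes of near-identical protein was not run, since no protein sequences were used here. Low counts limit Ifit3b, Zbp1, Ifitm1, Mx1 and Oas1c.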
